A study of Mus musculus with 8 samples.

Results

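The genes described here are 9 of the MHC class I antigen presentation pathway, of 53647 genes counted, measured in bone marrow cells labelled as wild type or knockout for the gene Trerf1. They were taken by name as a known pathway, with earlier results of these data known: the class I heavy chains H2-K1 and H2-D1, their light chain B2m, the peptide transporter Tap1 and Tap2, the loading factor Tapbp, the immunoproteasome subunits Psmb8 and Psmb9, and the coactivator Nlrc5. The 8 RNA libraries came from mouse bone marrow sorted as lineage-negative and CD127-positive (Lin- CD127+), a gate that holds early lymphoid progenitors. CD127 is the interleukin 7 receptor chain encoded by Il7r. In 4 libraries (WT1 to WT4) the genotype was Trerf1 +/+, and in 4 (KO1 to KO4) the label reads Tref1 -/-, which the study's design text gives as Trerf1 knockout. No treatment was named. The labels give no age, sex, strain or knockout allele, and do not say whether each library is a separate animal. The p-values here thus reflect how far libraries of a group lie apart, which may be technical in part. Each group held libraries with high and with nearly absent Xist (values below), so its libraries are not all repeats of the same source.

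MHC class I molecules carry short peptides from proteins made inside the cell to its surface, where CD8 T cells and NK cells read them. The proteasome cuts the proteins, the transporter made of TAP1 and TAP2 moves the peptides into the endoplasmic reticulum, and tapasin, the product of Tapbp, helps to load them onto a heavy chain paired with beta-2 microglobulin. Interferons induce most genes of the pathway, and NLRC5 works with the factors bound to a conserved promoter module of X and Y boxes in class I genes. Most blood cells express the pathway at high levels.

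The promoters of the 3 genes that make the class I molecule itself are shown because each holds letters of that module. Windows of 300 bases, from 250 before to 50 after the start site, were taken from RefSeq on build GRCm38.p6 and were found for 7 of the 9 genes (H2-K1, H2-D1, B2m, Tap1, Tapbp, Psmb8 and Psmb9). H2-K1 has 2 windows in the table, and the more upstream is shown. From the end of ATTGG to the start site there are 11 bases in it, beside 71 in H2-D1 and 48 in B2m. That distance depends on the start site used. The stretches lie at chr17:34000359-34000458 on the minus strand for H2-K1, chr17:35262923-35263022 on the plus strand for H2-D1 and chr2:122147550-122147638 on the plus strand for B2m. Capitals mark a match to the NF-kB consensus, the interferon response core AANNGAAA (TTTCACTT on the other strand), TGACG of the X2 box and ATTGG of the Y box.
H2-K1: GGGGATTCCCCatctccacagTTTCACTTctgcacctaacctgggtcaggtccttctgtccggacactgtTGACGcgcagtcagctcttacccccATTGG
H2-D1: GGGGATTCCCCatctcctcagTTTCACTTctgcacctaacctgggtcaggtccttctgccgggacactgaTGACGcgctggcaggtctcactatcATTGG
B2m: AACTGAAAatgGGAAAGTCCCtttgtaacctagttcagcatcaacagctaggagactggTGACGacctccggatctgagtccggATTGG

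In all 3 stretches TGACG and ATTGG stand 20 bases apart. Among all 32817 promoter windows of this length in the table, 31 (0.0945%) hold the pair at that distance on either strand. In 243 (0.74%) it stands 10 to 30 bases apart. The distance of 20 is the one these 3 stretches hold, and their windows are among those counted, so the count is no test. Single motifs are common: TGACG is in 20.8% of windows, ATTGG in 37.4%, AANNGAAA in 23.9% and the NF-kB consensus in 8.46%, searched on both strands. The H2-K1 and H2-D1 windows were identical at 206 of 228 aligned bases (90.4%). Tap1 and Psmb9 are transcribed away from each other and their windows share 275 bases, which hold TGACG and ATTGG but not the spaced pair. The Tapbp window holds ATTGG alone, and the Psmb8 window none of the 4 motifs. A match is a description of the letters and does not show binding.

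Libraries held 31109744 to 73414626 counts, the deepest 3 being WT2, WT4 and KO4, and 16352 genes had enough counts to be tested. Trerf1 itself (chromosome 17, 47451801 to 47672883) was at 29.0, 32.1, 27.1 and 22.3 CPM (the counts-per-million scale) in the order WT1 to WT4, and at 13.4, 12.8, 12.1 and 22.1 CPM in the order KO1 to KO4. The library labelled KO4 thus had nearly the level of WT4, and its genotype is not checked by the counts. The log2 fold change of Trerf1 was -0.87 ± 0.20 (SE, n = 4 against 4, edgeR quasi-likelihood test, Benjamini-Hochberg adjusted p = 0.999). Without WT4 and KO4 it was -1.20 (adjusted p = 0.0473, same test). WT4 was the lowest wild-type and KO4 the highest knockout library for Trerf1. Leaving them out thus widens this difference by itself, and the lower p is no separate evidence of a change. Over all 8 libraries no gene passed: 0 of 16352 genes rose (0.0%) and 0 fell (0.0%) at an adjusted p under 0.05, while 322 (1.97%) had an unadjusted p under 0.05. DESeq2 and limma-voom also called 0 genes, and without WT4 and KO4 edgeR called 12. CPM here is scaled by trimmed means of M values (TMM), a library scaling that assumes most genes do not change.

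None of the 9 class I pathway genes passed the test, and the Benjamini-Hochberg adjusted p was 0.999 for each of them (edgeR, quasi-likelihood). All 9 had passed the filter on low counts. Estimates ranged from -0.08 for Nlrc5 to 0.23 for B2m on the log2 scale, and the 95% intervals of the 9 genes together covered folds from 0.764 to 1.36. Larger changes than those bounds lay outside every interval of this fit of all 8 libraries, and the intervals were not adjusted over the 9 genes. Other fits reached further: B2m was at 0.29 ± 0.11 (SE) without WT4 and KO4. In the 5 shallower libraries it was at 0.34 ± 0.13. The estimate was higher in knockout for 8 of 9 genes, with a median of 0.07, beside 51.7% of all genes tested and a median of 0.01. Among the 1032 genes with a mean of at least 200 CPM, a background added after seeing the data that holds 8 of the 9, 70.5% had a higher estimate, with a median of 0.05. In bulk RNA, fewer cells of a type and less RNA per cell cannot be told apart.

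**Figure D1:**
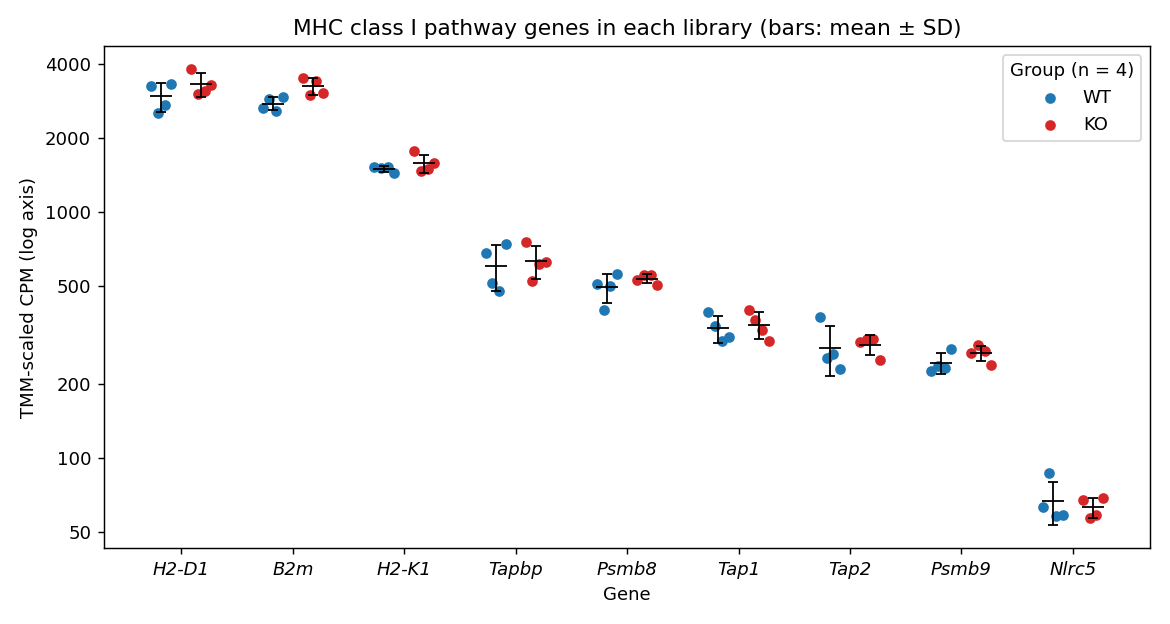
TMM-scaled CPM (log axis) of the 9 genes in each of the 4 wild-type and 4 knockout libraries, with mean ± SD as bars. The levels run from 57.1 CPM for Nlrc5 in KO2 to 3842 CPM for H2-D1 in KO1, and the groups overlap for every gene except B2m.

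Levels between genes can be compared only per length, here as TPM (the transcripts-per-million scale) from the deposited RSEM estimates. B2m was the highest, at a mean of 4638 ± 327 TPM in wild type and 5241 ± 445 TPM in knockout (SD, n = 4 each), rank 10 of all genes by mean TPM. H2-D1 followed at 2078 ± 219 and 2264 ± 293 TPM (rank 50), and H2-K1 at 1656 ± 105 and 1651 ± 187 TPM (rank 63). The light chain thus exceeded each heavy chain in all 8 libraries. Psmb8 had means of 1007 and 1089 TPM in wild type and knockout, Tapbp 363 and 372, Psmb9 307 and 309, Tap2 224 and 226, and Tap1 169 and 168. Nlrc5 was lowest by far, at 30.3 ± 4.99 and 25.7 ± 7.496 TPM (rank 5336). The ranges over libraries overlapped between H2-D1 and H2-K1, Tapbp and Psmb9, Psmb9 and Tap2, and Tap2 and Tap1. Within a library the order of these neighbours was the same in 8 of 8 libraries, except that Tapbp exceeded Psmb9 in 7 of 8. Together the 9 genes held 0.911 to 0.969% of counts in the wild-type libraries and 0.949 to 1.14% in the knockout libraries.

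The heavy chains bind the peptide. H2-K1 (ENSMUSG00000061232.17, chromosome 17, 34214991 to 34219321, minus strand) was at 1524, 1519, 1526 and 1447 CPM in WT1 to WT4, against 1771, 1478, 1494 and 1589 CPM in KO1 to KO4. The groups overlapped, KO1 stood above the other 7 libraries, and KO2 and KO3 lay below 3 of the 4 wild-type libraries. The log2 fold change was 0.07 ± 0.09 (SE), with a 95% interval from -0.13 to 0.27 (edgeR, unadjusted p = 0.430). H2-D1 (ENSMUSG00000073411.13, chromosome 17, 35481706 to 35486475, plus strand) was at 3265, 2527, 2737 and 3328 CPM in the wild-type libraries and 3842, 3030, 3108 and 3307 CPM in the knockout libraries. WT2 and WT3 were the lowest and KO1 the highest, while WT1 and WT4 lay within the knockout range. The log2 fold change was 0.16 ± 0.12, with an interval from -0.11 to 0.43 (edgeR, unadjusted p = 0.207). RSEM, which assigns reads shared between similar genes by estimation, gave a log2 fold change of 0.06 ± 0.09 for H2-K1 and 0.16 ± 0.12 for H2-D1 from its expected counts (edgeR). Without KO1 the values from counts were 0.0088 for H2-K1 and 0.081 for H2-D1, and without WT2 that of H2-D1 was 0.088.

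Coordinates of counted genes are on GRCm39, as the annotation path in the count files' header names it, and each count covers the gene's exons. Class I genes are near copies of each other, so reads can be shared. Of all stretches of 75 bases in their GENCODE M21 transcripts, 3.10% for H2-K1 and 5.56% for H2-D1 also occur in transcripts of other genes, most often H2-Q10 for H2-K1 and H2-Q1 for H2-D1, and 0 for B2m. At 50 bases the shares are 9.63% and 12.8%. The 7 members on chromosome 17 lie 11.97 to 13.3 Mb from Trerf1, on the same chromosome.

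B2m (ENSMUSG00000060802.9, chromosome 2, 121978167 to 121983564, plus strand), whose product pairs with every heavy chain, was at 2662, 2906, 2587 and 2935 CPM in WT1 to WT4, against 3517, 3002, 3433 and 3067 CPM in KO1 to KO4. Every knockout library stood above every wild-type library, narrowly for KO2 at 3002 against WT4 at 2935. Of all genes tested, 121 (0.74%) showed all 4 knockout libraries above all 4 wild-type libraries, and 89 (0.544%) all 4 below. The fold was 1.17, with a log2 fold change of 0.23 ± 0.10 and an interval from 0.02 to 0.44. The unadjusted p was 0.0355 by edgeR, rank 200 of 16352 genes, and the adjusted p was 0.999. It was the 1 member of 9 with an unadjusted p under 0.05, beside 1.97% of all genes in either direction, 1.04% with a higher estimate (170 genes) and 0.93% with a lower (152 genes). Over 20 other ways of processing the unadjusted p of B2m stayed under 0.05 in 14 and was 0.074 to 0.121 in 6: with RSEM expected counts, with no low count filter, and without WT1, WT3, KO1 or KO3. The separation depended on the scaling, in a comparison added after seeing the data: the groups overlapped by library size alone, by CPM from RSEM expected counts and by TPM, where WT2 at 5117 exceeded KO2 at 4610. The mean was higher in knockout on all 5 scales, by 1.13 to 1.17 times.

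**Figure D2:**
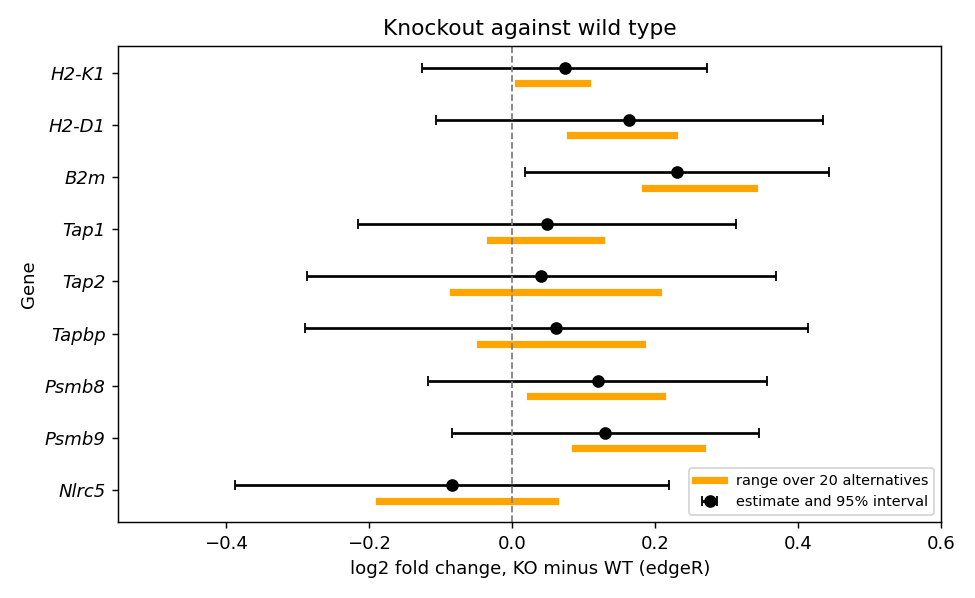
Log2 fold change of each gene, knockout minus wild type, from edgeR with its 95% interval (points and black bars), and the range of the estimate over 20 other ways of processing, including DESeq2 and limma-voom (orange bars). The interval of B2m, from 0.02 to 0.44, is the one that excludes 0 before adjustment over all genes.

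The 2 heavy chains can be set against each other within a library, which removes the library scaling. Per kilobase of merged exons, the H2-K1 to H2-D1 ratio was 0.410, 0.528, 0.489 and 0.382 in wild type (WT1 to WT4) and 0.405, 0.428, 0.422 and 0.422 in the knockout libraries. The means were 0.452 ± 0.068 and 0.419 ± 0.010 (SD, n = 4 each; exact permutation test of the log2 ratio, two-sided p = 0.4, 0.914 adjusted over the 4 ratios tested). The knockout values all lay inside the wild-type range. By TPM the ratio was 0.806 ± 0.121 and 0.731 ± 0.019 (exact permutation p = 0.4). With 4 libraries against 4 the smallest p this test can give is 0.0286.

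TAP1 and TAP2 form the peptide transporter. Tap1 (ENSMUSG00000037321.18, chromosome 17, 34406527 to 34416199, plus strand) was at 394, 343, 301 and 311 CPM in the wild-type libraries and 401, 364, 332 and 298 CPM in the knockout libraries. Tap2 (ENSMUSG00000024339.13, chromosome 17, 34422501 to 34435295, plus strand) was at 376, 255, 265 and 229 CPM in the wild-type libraries and 296, 306, 306 and 250 CPM in the knockout libraries. For both genes the groups overlapped, and for Tap2 the single library WT1 was highest, well above the next at 306. The log2 fold changes were 0.05 ± 0.12 for Tap1 (interval -0.22 to 0.31) and 0.04 ± 0.15 for Tap2 (interval -0.29 to 0.37).

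Tapasin bridges the transporter and the heavy chain. Tapbp (ENSMUSG00000024308.16, chromosome 17, 34134873 to 34148266, plus strand) was at 684, 517, 479 and 744 CPM in the wild-type libraries and 760, 528, 617 and 625 CPM in the knockout libraries. It had one of the wider spreads, with WT4 and KO1 high and WT2, WT3 and KO2 low. The log2 fold change was 0.06 ± 0.16, with an interval from -0.29 to 0.41. Tapbp and Tap2 share 29.0% and 18.5% of their exon bases with other annotated genes, chiefly Gm19412 and Gm15821 on the opposite strand. The library kit does not mark strand, so reads from these overlaps cannot be told apart.

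Psmb8 and Psmb9 replace the catalytic subunits Psmb5 and Psmb6 in the immunoproteasome. Psmb8 (ENSMUSG00000024338.16, chromosome 17, 34416695 to 34420428, plus strand) was at 512, 402, 503 and 560 CPM in the wild-type libraries and 532, 554, 555 and 508 CPM in the knockout libraries. WT2 was the low library and WT4 the high one, with all knockout libraries between them. Psmb9 (ENSMUSG00000096727.4, chromosome 17, 34400961 to 34406738, minus strand) was at 226, 237, 233 and 279 CPM in the wild-type libraries and 269, 287, 272 and 240 CPM in the knockout libraries. WT1, WT2 and WT3 lay below all knockout libraries, and WT4 lay among them. The log2 fold changes were 0.12 ± 0.11 for Psmb8 (interval -0.12 to 0.36) and 0.13 ± 0.10 for Psmb9 (interval -0.08 to 0.35). Without WT2 the value of Psmb8 was 0.025, and without WT4 that of Psmb8 was 0.19 and that of Psmb9 0.20. Psmb9 had an unadjusted p under 0.05 in 4 of the 20 other ways of processing, with the lowest 0.0173 without WT4 and KO4 (edgeR, adjusted p = 0.453). Psmb8 shares 14.7% of its exon bases with Gm20496 on the opposite strand, and Psmb9 and Tap1 share 212 exon bases.

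Each immunoproteasome subunit was also set against the constitutive subunit it replaces. Per kilobase, Psmb8 made up 68.0, 59.5, 63.0 and 63.3% of Psmb8 and Psmb5 in the wild-type libraries and 65.2, 63.0, 63.5 and 62.8% in the knockout libraries, with means of 63.5 ± 3.48% and 63.6 ± 1.09% (SD, n = 4 each; exact permutation p = 0.914). Psmb9 made up 33.0 ± 3.42% of Psmb9 and Psmb6 in wild type and 31.8 ± 1.83% in knockout (exact permutation p = 0.657). Psmb10, the third immunoproteasome subunit, made up 72.9 ± 2.10% and 72.7 ± 2.75% of Psmb10 and Psmb7 (exact permutation p = 0.886). The p adjusted over the 4 ratios was 0.914 for each of these 3 exact permutation tests. By counts per kilobase Psmb8 and Psmb10 were the larger part of their pairs in every library and Psmb9 the smaller. By TPM this did not hold for Psmb10, whose share ran from 44.3 to 54.1% over the libraries. No share differed between the groups beyond the spread between libraries. The level of a share depends on the source, since both the length and the reads counted differ. By TPM the wild-type means were 81.8% for Psmb8, 40.8% for Psmb9 and 50.3% for Psmb10. The knockout means were 82.8, 37.6 and 48.3% (exact permutation p adjusted over the 4 ratios 0.514 for each). Relative to all genes, reads per RSEM expected count were 0.782 for Psmb8 and 0.642 for Psmb5. They were 1.16 for Psmb9 and 1.21 for Psmb6, and 1.19 for Psmb10 and 0.712 for Psmb7. Psmb5 and Psmb7 share 12.1% and 11.8% of their exon bases with Mir686 and Nek6.

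**Figure D3:**
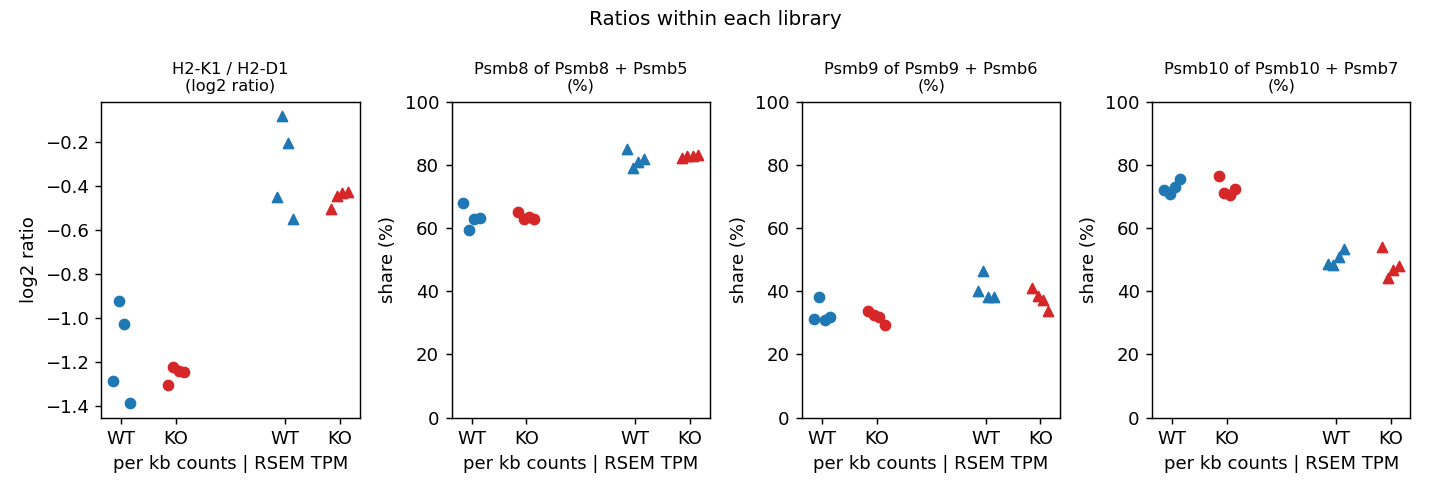
The H2-K1 to H2-D1 ratio (log2) and the share of each immunoproteasome subunit (percent) in the 8 libraries, from counts per kilobase at left and RSEM TPM at right in each panel, with points for libraries. The wild-type libraries spread more widely than the knockout libraries for the ratio, from 0.382 to 0.528 against 0.405 to 0.428 on the linear scale by counts.

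Nlrc5 (ENSMUSG00000074151.14, chromosome 8, 95160984 to 95253900, plus strand) was the least abundant member, at 63.2, 86.6, 58.3 and 58.5 CPM in the wild-type libraries and 67.2, 57.1, 58.8 and 68.5 CPM in the knockout libraries. WT2 was the high library, and the other 7 lay between 57.1 and 68.5 CPM. The log2 fold change was -0.08 ± 0.14, with an interval from -0.39 to 0.22 (edgeR, unadjusted p = 0.555).

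Other genes of the pathway were taken in 6 lists, 75 genes in all, of which 70 were tested. None passed the test, 47 had a higher estimate in knockout, 3 had an unadjusted p under 0.05 (1.97% of all genes did), and the median log2 fold change was 0.06. The constitutive proteasome core had 14 of 14 estimates above 0, from 0.03 to 0.19, with a median of 0.12. Beside this, 51.7% of all genes tested and 70.5% of genes with a mean of at least 200 CPM had a higher estimate. The count was 13 or 14 over all 20 other ways of processing. Its lowest p belonged to Psma1, an alpha ring subunit, at 241, 247, 270 and 269 CPM in the wild-type libraries and 282, 299, 306 and 285 CPM in the knockout libraries. The groups of Psma1 did not overlap (log2 fold change 0.19 ± 0.08, edgeR unadjusted p = 0.0394, adjusted p 0.999). Of all genes tested, 121 (0.74%) had all 4 knockout libraries above all 4 wild-type libraries. Psmb1, a beta ring subunit, had means of 300.2 and 329.7 CPM (0.14 ± 0.08), and its groups overlapped.

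Of 16 further class I and class Ib genes, 11 were tested and 9 had a higher estimate, with a median of 0.21. H2-T3, H2-Q1, H2-Q2, H2-Q10 and H2-M5 were under the filter on low counts. H2-T22, whose product is a ligand of some gamma delta T cells, was at 109, 92.3, 103 and 136 CPM in the wild-type libraries and 138, 123, 132 and 136 CPM in the knockout libraries (0.26 ± 0.12, edgeR unadjusted p = 0.0469, adjusted p 0.999). The groups overlapped through WT4. H2-Q6, a Qa class gene, was at 12.7 to 17.2 CPM in the wild-type libraries and 16.8 to 20.8 CPM in the knockout libraries (0.36 ± 0.14, edgeR unadjusted p = 0.0260, adjusted p 0.999), again with overlap. Its value is uncertain, since the counts hold 0.52 to 0.82 of a read per RSEM expected count, beside 3.67 to 4.003 over all genes and 4.18 to 4.45 for H2-K1. The nearly identical H2-Q7 had 0.67 to 0.92.

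Of 13 genes for peptide loading and trimming, 6 had a higher estimate, with a median of -0.02. The lowest p values there belonged to the aminopeptidases Lnpep (102.5 ± 11.1 and 89.8 ± 11.8 CPM) and Npepps (44.3 ± 1.52 and 40.2 ± 4.21 CPM). In the list of the immunoproteasome and its activator, 4 of 5 estimates were higher, with a median of 0.09, led by the assembly factor Pomp (0.11 ± 0.10) and the activator subunit Psme2 (0.10 ± 0.11). Of 19 genes for the transcription of class I genes, 10 were higher, with a median of 0.02. Nfyc, a subunit of the factor that binds the Y box, was at 59.6 to 66.0 CPM in the wild-type libraries and 66.4 to 71.2 CPM in the knockout libraries. Its groups did not overlap (0.12 ± 0.08, edgeR unadjusted p = 0.164), a separation in this direction that 0.74% of all genes tested showed. Rfx5, a subunit of the factor that binds the X box, was at 4.02 ± 0.43 and 3.20 ± 1.17 CPM (-0.33 ± 0.27). Of 8 interferon receptor and signalling genes 4 were higher, with a median of 0.00. The kinase Tyk2 had means of 102.1 ± 26.0 and 80.9 ± 12.7 CPM (-0.34 ± 0.18), and the receptor chain Ifngr1 154 ± 12.8 and 168 ± 18.1 CPM (0.12 ± 0.10), both with overlap.

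The 9 genes varied between libraries of the same group. KO1 was the highest library for 5 of the 9 genes (H2-K1, H2-D1, B2m, Tap1 and Tapbp) and above the median of the libraries for 9 of 9. WT3 was above the median for 1 of 9 and WT2 for 2 of 9. Without KO1, 6 of 9 estimates were higher in knockout, with a median of 0.02, and without WT4 the median was 0.18. KO1 also had the highest summed CPM of the 8 libraries for 4 of 10 marker lists, those of mature B cells (648), T cells (474), monocytes and macrophages (782) and type I interferon response. The 15 interferon response genes summed to 1046 in KO1, beside 444 to 940 in wild type and 413 to 764 in the other knockout libraries. Of these 15 genes, 13 had a higher estimate in knockout, and that count was 8 to 14 over the other ways of processing. The part of these lists in the levels of the class I genes was not tested.

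**Figure D4:**
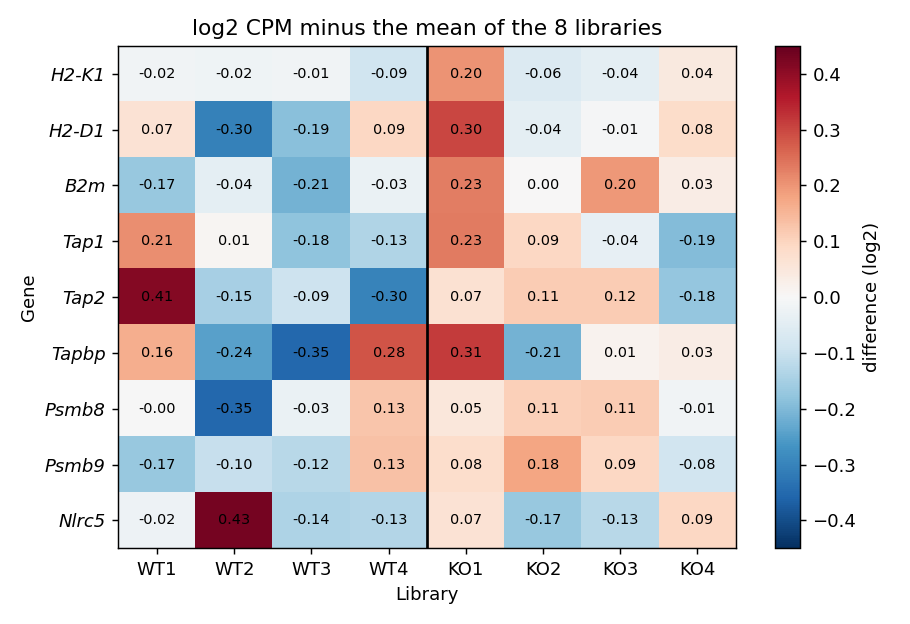
Log2 CPM of each gene minus its mean over the 8 libraries (red higher, blue lower), with wild-type libraries left of the line. KO1 is above the mean for every gene, from 0.05 for Psmb8 to 0.31 for Tapbp, and WT3 is below it for every gene.

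The genes did not all vary together across the 8 libraries. Of the 36 pairs, 27 had a positive Pearson r, with a median of 0.27, given as a description since all values share the libraries and their scaling. H2-D1 and Tapbp were the closest pair (r = 0.88, rho = 0.95), and r was 0.91 without the 2 libraries farthest from the median of H2-D1. Tap1 and Tap2 had r = 0.75, and Psmb8 and Psmb9 r = 0.63 (0.93 without WT2). Tap1 and Psmb9, whose promoter windows overlap, had r = 0.10, which moved to 0.48 without WT1 and to -0.074 without WT3. Nlrc5 and Psmb8 went in opposite directions (r = -0.90, rho = -0.50), which rested on WT2, since r was -0.51 without it. For Nlrc5 and H2-K1, r was 0.30 and without WT2 0.78. The genes most like the mean of the 9, over 8 libraries, were Pgap2 (r = 0.99), Galns (r = 0.98), Usp8 (r = 0.97), Serpinc1 (r = 0.95) and Lgals3bp (r = 0.94), and 28 of 13070 genes compared had r over 0.9.

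The labelled cells were checked by their markers. Il7r, which encodes CD127, was at 324 ± 46.8 CPM in the wild-type libraries and 354 ± 45.8 CPM in the knockout libraries. Flt3, a receptor of early lymphoid progenitors, was at 1066 and 1107 CPM. Both belong to a list of 6 genes taken as markers of the sorted cells, of which only Il7r encodes a protein of the stated gate. In that list 4 had a higher estimate (3 to 6 over the other ways of processing). Ptprc (-0.016) and Kit (-0.052) had lower estimates. Dntt, also in the list, varied widely, from 853 CPM in WT4 to 3025 CPM in KO2. The list summed to 7027 to 8448 CPM in wild type and 7307 to 10457 in knockout. A large part was Ly6d, at 2856 to 4197 and 3607 to 4905 CPM, so the sum is no check of the sort. No marker of another cell type was at 0 in all libraries, and the neutrophil marker Ly6g was under 10 counts in every library. Mature B cell markers summed to 420 to 586 CPM in wild type and 551 to 648 in knockout, with 9 of 9 tested higher by estimate (7 to 9 over the other ways of processing). Monocyte and macrophage markers summed to 407 to 694 and 534 to 782 CPM, with 8 of 8 tested higher by estimate (5 to 8 over the other ways). Dendritic and plasmacytoid dendritic cell markers had the largest sum among the lists of other cell types. They were at 6784 to 10989 and 7915 to 9042 CPM, with 4 of 10 higher (1 to 7 over the other ways). That list also holds Flt3, which was a small part of the sum, at 910 to 1245 and 930 to 1339 CPM. Erythroid markers summed to 514 to 1115 and 613 to 771 CPM, with 1 of 12 higher and a median log2 fold change of -1.04. That direction rested on WT1, the highest library at 1115, since 8 of 12 were higher without it, with a median of 0.14. Innate lymphoid (ILC2) markers summed to 305 to 617 and 192 to 422 CPM, with 2 of 10 higher (1 to 3 over the other ways). T cell markers summed to 280 to 365 and 276 to 474 CPM, with 7 of 10 higher (6 to 8 over the other ways) and a median of 0.30. NK cell and ILC1 markers summed to 99.3 to 174 and 118 to 172 CPM, with 6 of 9 higher (4 to 8 over the other ways). Neutrophil markers summed to 185 to 272 and 161 to 328 CPM, with 6 of 7 tested higher and a median of 0.83. That direction rested on KO1, since 3 of 7 were higher without it, with a median of -0.078. The part of all these markers in the levels of the class I genes was not tested. Xist was at 531, 0.061, 0.61 and 563 CPM in WT1 to WT4 and at 447, 0.062, 498 and 768 CPM in KO1 to KO4. It was thus above 100 CPM in 2 of 4 wild-type and 3 of 4 knockout libraries, mixed within each group and unequal between the groups.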

How the data were processed

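Per the submitters' processing notes, tools included STAR 2.6.0a, Picard 2.19, featureCounts 1.6.4 and RSEM 1.3.1, with genome build mm10. The annotation path in the featureCounts header names GRCm39, so coordinates were taken as that build. The count files were deposited by the authors as whole-number read counts per gene, and the deposited RSEM files give expected counts and TPM per gene. Per the labels' protocols, each library was built from 200 ng of total RNA with a low-input kit. Counts exceeded RSEM expected counts 3.67 to 4.003 times, and 59.9 to 76.6% of counts from 1 to 100 were even, so counts are not molecules.

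Of 53647 gene identifiers, 52093 had a symbol in the files or the reference name table. Genes were filtered with filterByExpr, scaled by TMM and tested with edgeR 4.0.16 (R 4.3.3, quasi-likelihood F test, no covariates, Benjamini-Hochberg 0.05), with a biological coefficient of variation of 26.9%. Ratios were tested by exact two-sided permutation of the 70 assignments. Alternatives used DESeq2 1.42.0, limma 3.58.1 and rounded RSEM expected counts. Log2 CPM for profiles and correlations used a prior count of 3.

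The members and lists were chosen with earlier results of these data known. The text names the members, Trerf1, the 2 genes with the lowest p per list, Psmb5, Psmb6, Psmb7 and Psmb10, and the 5 genes most like the mean of the members. Other genes named for sequence overlap, and the markers Il7r, Flt3, Ptprc, Kit, Ly6d, Dntt, Ly6g and Xist, were added to describe the libraries.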

Additional observations from a re-analysis of the deposited data

Results flagged for a closer look

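In 4 of 60 groups of 4 libraries examined, 1 library stood apart from the other 3 by a gap above 0.829 of the group's range (Dixon's 95% value). Chance gives about 1 in 20. H2-K1 in WT4 was at 1447 CPM, with the other wild-type libraries between 1519 and 1526. Trerf1 in the library labelled KO4 was at 22.1 CPM, with the other knockout libraries between 12.1 and 13.4. Nfyc in KO2 was at 71.2 CPM, with the others between 66.4 and 66.8. The Psmb9 share of Psmb9 and Psmb6 in WT2 was 38.1%, with the others between 30.8 and 31.9%.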

How the results depend on the processing

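Over 20 other ways of processing, 0 of the 9 members and 0 of the 70 tested pathway genes passed the test in any, and the smallest adjusted p of a member was 0.453, for Psmb9 without WT4 and KO4. The count of all genes passing was 0, except 12 without WT4 and KO4, where Trerf1 was at -1.20. For Trerf1, leaving out its lowest wild-type and highest knockout library widens the value by itself. Estimates of H2-K1, H2-D1, B2m, Psmb8 and Psmb9 kept their sign in all 20, with ranges over left-out libraries of 0.0088 to 0.11, 0.081 to 0.23, 0.19 to 0.27, 0.025 to 0.19 and 0.088 to 0.20. TPM was not among the 20. By mean TPM, 6 of 9 members were higher in knockout, and the knockout to wild-type ratio of H2-K1 was 0.997. Signs changed for Tap2 with depth class as covariate (-0.037) and in the 5 shallower libraries (-0.082), for Tapbp with Xist as covariate (-0.012) and for Nlrc5 in the 5 shallower libraries (0.0074). Leaving out each library in turn gave -0.031 to 0.12 for Tap1, -0.044 to 0.20 for Tap2, -0.044 to 0.18 for Tapbp and -0.15 to 0.061 for Nlrc5. Knockout minus wild-type shares in percentage points were 0.163 for Psmb8, -1.16 for Psmb9 and -0.205 for Psmb10. They became -1.60 for Psmb8, 1.67 for Psmb9 and 0.221 for Psmb10 in the 5 shallower libraries and 0.822 for Psmb10 without WT4 and KO4. Leaving out each library gave -1.15 to 1.67, -1.89 to 0.54 and -1.52 to 0.74. The causes were not tested.

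Deviations from the group means correlated at 0.36, 0.31, -0.03 and 0.12 between libraries numbered 1 to 4, and 4 of 8 libraries correlated best with their own number, so the numbers were not taken as pairs. With the replicate number as a block, 0 genes passed, 634 had an unadjusted p under 0.05, and B2m was at 0.23 (edgeR adjusted p = 0.936).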
